A study of Mus musculus with 31 samples.

Results

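Polycystic kidney disease genes are the genes whose loss or change gives rise to fluid-filled cysts in the kidney tubules of humans or mice. The 9 described here, of 23509 genes counted, were chosen by symbol: Pkd1 and Pkd2, which encode polycystin-1 and polycystin-2; Pkhd1, which encodes fibrocystin; Bicc1, an RNA-binding protein; Glis2 and Glis3, transcription factors of the Gli-similar family; and Ganab, Prkcsh and Sec63, whose proteins work in the endoplasmic reticulum. Kidney mRNA was sequenced from 31 mice harvested at 30 weeks of age. The 26 Pcy/CD1 mice, a slowly progressing cystic strain that carries the recessive pcy allele on the CD1 background, were injected subcutaneously from 5 weeks of age for 25 weeks. Of these, 12 received PBS and 14 received RGLS4326 at 25 mg kg−1 once monthly (Q4W). The sample labels and a figure legend of the paper give the PBS interval as weekly, while the treatment text reads as monthly for both. PBS and RGLS4326 mice may thus also differ in how often they were injected. The other 5 were untreated male WT/CD1 mice of the same age, and the paper describes the Pcy/CD1 mice as male too. Wild type thus differed from PBS both in the allele and in having had no injections. RGLS4326 is a short, chemically modified oligonucleotide complementary to the seed of the miR-17 family, and nothing but whole kidney was sampled.

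Polycystin-1 and polycystin-2 form a receptor-channel complex that sits on the primary cilium of tubule cells, and inherited loss of either causes the dominant form of the disease, in which the dose of functional polycystin is held to matter. Fibrocystin, also a ciliary membrane protein, is lost in the recessive form. The endoplasmic reticulum group matters because polycystin-1 is a large glycoprotein that must be translocated, trimmed of glucose and folded before it can reach the cilium. MicroRNAs of the miR-17 family bind matching sites in 3′UTRs and repress the mRNA, and an anti-miR blocks that binding.

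The mature microRNAs that RGLS4326 is directed against show what the target sites are matched to. RefSeq (GRCm38.p6) lists 7 mature mouse sequences with the same bases 2 to 8, of which the 6 named members of the miR-17 family are printed 5′ to 3′ with those bases, the seed, in capitals. The mmu-miR-6383 sequence also has them.
mmu-miR-17-5p: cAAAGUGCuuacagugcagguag
mmu-miR-20a-5p: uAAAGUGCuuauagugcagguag
mmu-miR-20b-5p: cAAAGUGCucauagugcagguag
mmu-miR-93-5p: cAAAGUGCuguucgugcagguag
mmu-miR-106a-5p: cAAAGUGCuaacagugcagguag
mmu-miR-106b-5p: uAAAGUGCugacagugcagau

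In the longest annotated 3′UTR of each gene (GENCODE vM21, GRCm38, searched on the transcribed strand only), the complement GCACTTT followed by A (an 8mer) occurred in Pkd1, Pkd2 and Bicc1. Among all 21027 genes with an annotated 3′UTR, 735 (3.5%) hold an 8mer. GCACTTT with another base after it (a 7mer-m8) occurred once each in Glis3 and Sec63, and 11.8% of all genes hold an 8mer or a 7mer-m8. CACTTTA without the leading G (a 7mer-A1) occurred once more in Bicc1 and 2 times in Glis3. With these included, 18.6% of genes hold a match. Pkhd1, Glis2, Ganab and Prkcsh held none of these letters in their longest 3′UTR. A match of letters is a description and does not show that a microRNA binds there. The 5 sites with GCACTTT are printed 5′ to 3′ on the strand of the gene, 24 bases each, with the match in capitals and all in the last exon.
Pkd1, chr17:24595732-24595739, plus strand: cacatatggggcttctGCACTTTA
Pkd2, chr5:104503821-104503828, plus strand: attgttataattttctGCACTTTA
Bicc1, chr10:70924747-70924754, minus strand: tgagtgaggtcttccaGCACTTTA
Glis3, chr19:28259544-28259550, minus strand: aatgttgctgacataaaGCACTTT
Sec63, chr10:42829891-42829897, plus strand: tacagcatacaaaggagGCACTTT

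Counts on genes totalled 14892524 to 27459962 per mouse, and a member's count in 1 mouse ran from 285 reads (Glis3 in an RGLS4326-treated mouse) to 9410 (Glis2 in a PBS-treated mouse). Values are CPM, counts relative to the library total after edgeR's TMM scaling, and fold changes come from 1 model of all 31 mice. That scaling matters here: the factors were 0.818 to 0.854 in wild type, 1.004 to 1.17 with PBS and 0.890 to 1.08 with RGLS4326, while the 10 most abundant genes of each library took 14.2 to 15.1%, 8.26 to 12.7% and 10.7 to 14.2% of its counts. With library totals alone, the log2 fold change of the median gene moved from 0.010 to 0.38 for PBS against wild type and from −0.0043 to −0.12 for RGLS4326 against PBS. Higher calls then made up 80.0% rather than 50.7% of all calls in the first comparison and 11.8% rather than 57.9% in the second. Directions below are therefore relative to the median gene. Measured from that median, no member changed sign with library totals. RGLS4326-treated mouse 9 stood apart from its group with Lcn2, an injury marker of tubules, at 2.76 CPM, within the wild-type range. Wild-type mice 3 and 4 were more alike than any other wild-type pair but differed by more than sampling noise, and the member calls were the same with their counts summed as 1 mouse.

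Against wild type, PBS-treated Pcy/CD1 kidneys held more Bicc1, Glis2, Pkd1 and Pkhd1 mRNA and less Glis3, Ganab, Sec63 and Prkcsh mRNA, while Pkd2 was lower without passing the test. Thus 8 of 9 members passed an adjusted p of 0.05, 4 in each direction, where 74.3% of the 15185 genes tested passed (37.7% higher and 36.6% lower); 8 of 9 is not far from that share. The groups did not overlap for 4 members, Bicc1 and Glis2 above and Ganab and Sec63 below, against 42.2% of all genes (20.3% above and 21.9% below). With library totals, 6 members were called higher and none lower, where 62.6% of all genes were called higher and 15.6% lower. In RGLS4326-treated mice, 2 of 9 members differed from PBS, Bicc1 and Glis2, both lower, where 15.8% of all genes passed (9.15% higher and 6.66% lower), and the groups overlapped for every member. With library totals 4 were lower, Pkhd1 and Prkcsh also, where 27.2% of all genes were called lower. Against wild type, 6 of 9 members still passed in RGLS4326-treated kidneys, where 64.9% of all genes did (32.5% higher and 32.4% lower). They were Pkd1 and Glis2 above and Glis3, Ganab, Prkcsh and Sec63 below, and only Glis2 had no overlap, against 14.8% of all genes (5.04% above and 9.75% below). With library totals, 6 were higher (Pkd1, Pkd2, Pkhd1, Bicc1, Glis2 and Sec63) and none lower, where 55.6% of all genes were called higher and 13.7% lower. The last 2 comparisons each share a group with the first, so their values are not independent of it.

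**Figure D1:**
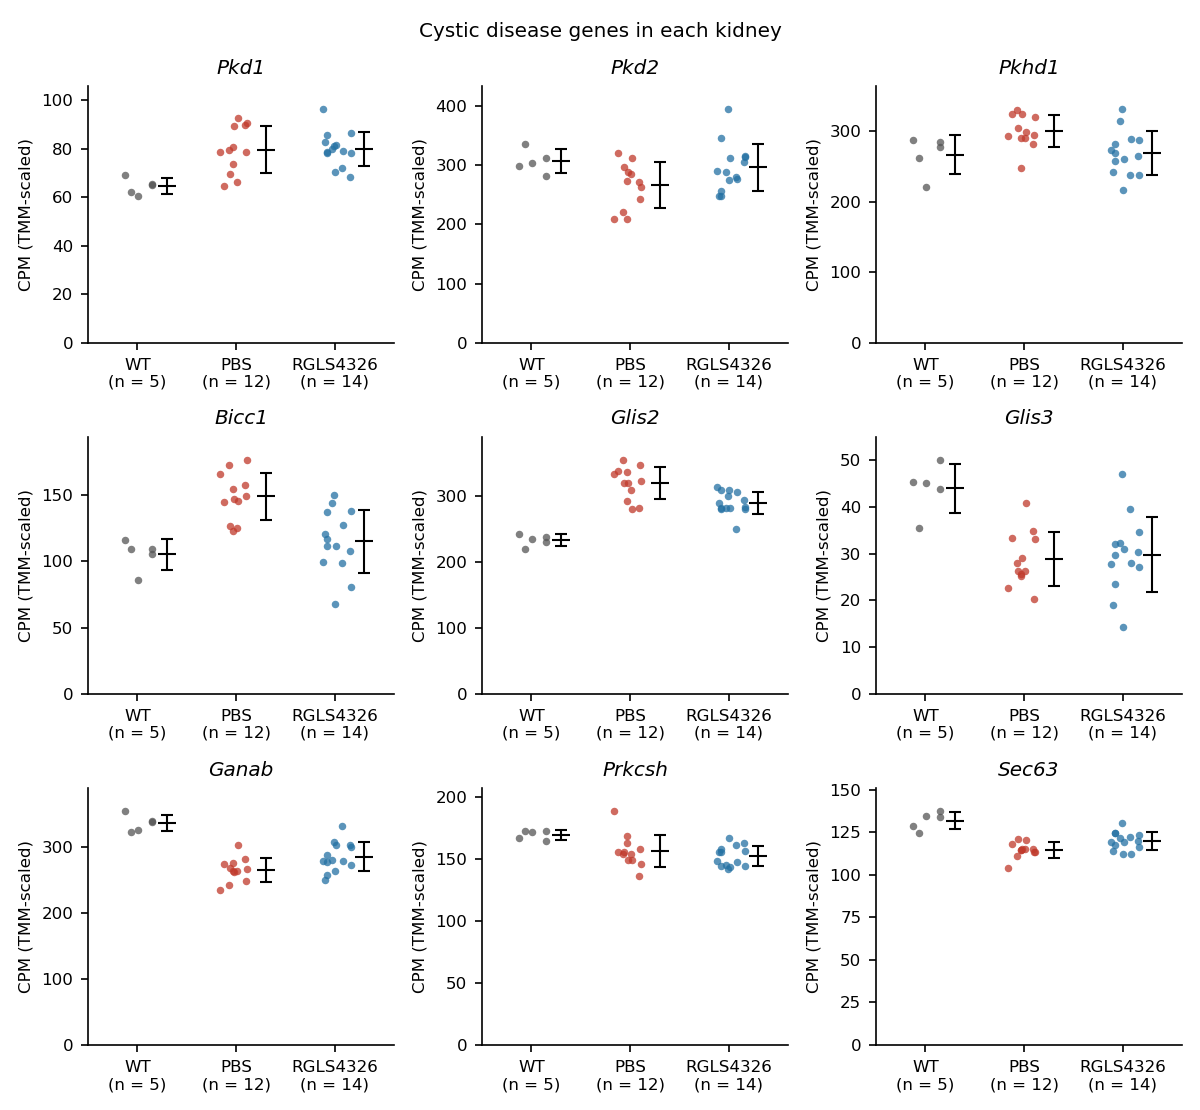
Each panel plots 1 gene, with CPM on the vertical axis from 0 and the 3 groups on the horizontal axis; each point is 1 kidney, and the bar beside the points is the mean with its SD. Glis2 and Bicc1 with PBS lie wholly above wild type, Ganab and Sec63 wholly below, and the RGLS4326 points of every gene overlap those with PBS.

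Pkd1 lies on the plus strand of chromosome 17 from 24549834 to 24596508 (GRCm38). In wild-type mice 1 to 5 it read 60.6, 65.4, 69.2, 65.2 and 62.4 CPM. With PBS it ran from 64.7 to 92.8 CPM with a median of 79.3, and with RGLS4326 from 68.4 to 96.3 CPM with a median of 79.5. Most cystic kidneys thus lay above wild type, 10 of 12 with PBS above the highest wild-type mouse, and the ranges of the treated and PBS-treated mice overlapped. The log2 fold change was 0.30 for PBS against wild type (SE 0.076, adjusted p = 0.00075). Every adjusted p of a fold change is from the quasi-likelihood test of edgeR, adjusted over all genes by the method of Benjamini and Hochberg. Between RGLS4326 and PBS it was 0.0061 (95% interval −0.11 to 0.12, adjusted p = 0.944). Exons of Pkd1 overlap those of Tsc2 on the other strand, and the strand setting of the counting is not given in the sources used here. Tsc2, which encodes tuberin, moved the other way relative to the median gene (log2 fold change −0.21 for PBS against wild type, and 0.15 with library totals).

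Pkd2, the channel subunit, lies on the plus strand of chromosome 5 from 104459450 to 104505819. It read 304, 281, 298, 312 and 336 CPM in wild-type mice 1 to 5, 208 to 321 CPM with PBS (median 273) and 248 to 394 CPM with RGLS4326 (median 290). With PBS, 7 of 12 mice fell below the lowest wild-type mouse, and with RGLS4326 6 of 14 did. Relative to wild type the log2 fold change with PBS was −0.20 (SE 0.097, adjusted p = 0.0595), a difference that turned to 0.16 with library totals. RGLS4326 exceeded PBS by 0.16 (95% interval 0.0083 to 0.30, SE 0.072), with 11 of 14 treated mice above the PBS median. The unadjusted p was 0.039 and the adjusted p 0.116, which did not pass. With library totals the value was 0.048 (edgeR adjusted p = 0.535). RGLS4326 against wild type gave −0.047 (edgeR adjusted p = 0.683), or 0.203 with library totals, which passed (edgeR adjusted p = 0.0241).

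Fibrocystin is encoded by Pkhd1, on the minus strand of chromosome 1 from 20057779 to 20618064. It read 221, 277, 288, 285 and 263 CPM in wild type, 248 to 330 CPM with PBS (median 297) and 217 to 331 CPM with RGLS4326 (median 267). PBS-treated mice were a little higher than wild type (log2 fold change 0.17, SE 0.078, adjusted p = 0.0466), and RGLS4326 against wild type gave 0.014 (95% interval −0.14 to 0.17, adjusted p = 0.883), or 0.27 with library totals, which passed (adjusted p = 0.0104). RGLS4326 against PBS gave −0.16 (SE 0.057), with 12 of 14 treated mice below the PBS median, and an adjusted p of 0.053 that narrowly missed. These Pkhd1 results lay near the threshold: the first was lost on leaving out any 1 of 11 mice and in 6 of 12 other settings, among them no filter on low counts (adjusted p = 0.0555), and the treatment difference passed on leaving out any 1 of 7 mice or with DESeq2 (adjusted p = 0.0392) among 3 of 12 other settings.

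Bicc1 encodes an RNA-binding protein that regulates mRNA stability and translation in tubule cells, and its loss in mice gives cystic kidneys with reduced Pkd2. The gene lies on the minus strand of chromosome 10 from 70922832 to 71159700. Wild-type mice read 86.1, 106, 116, 109 and 109 CPM. The 12 PBS-treated mice, at 123 to 176 CPM (median 148), all lay above them. RGLS4326-treated mice spread from 67.8 to 150 CPM (median 114), across the whole wild-type range and the lower part of that with PBS, and 9 of 14 lay below the lowest PBS-treated mouse. The log2 fold change was 0.50 for PBS against wild type (SE 0.13, adjusted p = 0.00093) and −0.37 for RGLS4326 against PBS (SE 0.093, 95% interval −0.56 to −0.18, adjusted p = 0.0147). RGLS4326 against wild type gave 0.13 (95% interval −0.13 to 0.38, adjusted p = 0.369), but it passed with library totals (0.39, adjusted p = 0.0204) and within the first of 3 index series of libraries (0.40, adjusted p = 0.0409). In the other two series it was 0.18 and −0.19 and did not pass. Bicc1 thus carried the largest treatment difference among the 9 genes, and it was lower with RGLS4326. Its 3′UTR holds an 8mer, and whether that site acts in these kidneys was not tested.

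Glis2, a ciliary and nuclear zinc-finger protein mutated in a form of nephronophthisis, lies on the plus strand of chromosome 16 from 4594713 to 4624924. It read 235, 230, 242, 238 and 219 CPM in wild type. PBS-treated mice ran from 281 to 354 CPM (median 321) and RGLS4326-treated mice from 249.5 to 313 CPM (median 286), so both cystic groups lay wholly above wild type. Glis2 rose with PBS by 0.46 on the log2 scale (SE 0.054, adjusted p = 3.18e-08). RGLS4326-treated mice were lower than PBS by −0.14 (SE 0.039, adjusted p = 0.0235), and all 14 lay below the PBS median. They remained 0.32 above wild type (SE 0.053, adjusted p = 1.09e-05). Without PBS-treated mouse 10, which had the highest Glis2, the adjusted p of the treatment difference was 0.055. Exons of Glis2 overlap those of Pam16 on the other strand.

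Its relative Glis3, a factor whose loss gives cystic kidneys together with neonatal diabetes and hypothyroidism, went the other way. The gene lies on the minus strand of chromosome 19 from 28258851 to 28680077, and wild-type mice read 45.2, 49.95, 45.4, 43.8 and 35.6 CPM. With PBS it fell to 20.2 to 40.8 CPM (median 27.1), 11 of 12 mice lying below the lowest wild-type mouse. The log2 fold change was −0.61 (SE 0.17, adjusted p = 0.0015), which with library totals was −0.25 and did not pass (adjusted p = 0.144). RGLS4326-treated mice ran from 14.4 to 47.1 CPM (median 29.96), the widest relative spread of the 9 genes (coefficient of variation 27.0%, n = 14). Against PBS they did not pass (0.049, 95% interval −0.21 to 0.31, adjusted p = 0.792) and stayed below wild type (−0.56, SE 0.16, adjusted p = 0.0033), which with library totals was −0.32 and did not pass (adjusted p = 0.0633).

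Ganab and Prkcsh encode the catalytic and the regulatory subunit of glucosidase II, the enzyme that trims glucose from newly made glycoproteins. Ganab lies on the plus strand of chromosome 19 from 8898071 to 8916672 and read 327, 338, 355, 341 and 324 CPM in wild type. All 12 PBS-treated mice lay lower, at 235 to 304 CPM (median 266), and 13 of 14 RGLS4326-treated mice did, at 251 to 333 CPM (median 280). Ganab fell with PBS by 0.34 on the log2 scale relative to wild type (SE 0.055, adjusted p = 2.87e-06), although with library totals the value was 0.023 (adjusted p = 0.595). With RGLS4326 it was 0.10 above PBS (95% interval 0.019 to 0.19), an adjusted p of 0.0744 that did not pass but that did with DESeq2 (0.0476), and it stayed below wild type (−0.24, adjusted p = 0.00041; 0.014 and adjusted p = 0.769 with library totals).

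Prkcsh lies on the plus strand of chromosome 9 from 22002806 to 22014222. It read 172, 172, 167, 164 and 173 CPM in wild type, 137 to 188 CPM with PBS (median 155) and 141 to 167 CPM with RGLS4326 (median 152). The highest PBS value belonged to mouse 5, which had the lowest Ganab and Sec63 of its group. The changes were small, −0.11 for PBS against wild type (SE 0.051, adjusted p = 0.0422), −0.041 for RGLS4326 against PBS (adjusted p = 0.429) and −0.16 for RGLS4326 against wild type (SE 0.050, adjusted p = 0.0072, or 0.099 and adjusted p = 0.152 with library totals). The first was lost on leaving out any 1 of 11 mice and in 7 of 12 other settings, such as a filter of 1 CPM (adjusted p = 0.159) or a fit of these 2 groups only (0.137), and became 0.25 with library totals.

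Sec63, a subunit of the translocon that passes new proteins into the endoplasmic reticulum, lies on the plus strand of chromosome 10 from 42761496 to 42832514. It varied little within groups, at 134, 137, 129, 134 and 125 CPM in wild type, 104 to 121 CPM with PBS (median 115) and 112 to 130 CPM with RGLS4326 (median 119). The PBS-treated mice all lay below wild type, and the treated mice overlapped both groups. Sec63 fell with PBS by 0.20 on the log2 scale (SE 0.036, adjusted p = 1.26e-05), a difference that was 0.16 with library totals. RGLS4326 against PBS gave 0.065 (95% interval 0.0099 to 0.12, adjusted p = 0.0844, and 0.0452 with DESeq2), and RGLS4326 against wild type −0.14 (SE 0.035, adjusted p = 0.0014), which became 0.12 with library totals (adjusted p = 0.0082).

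**Figure D2:**
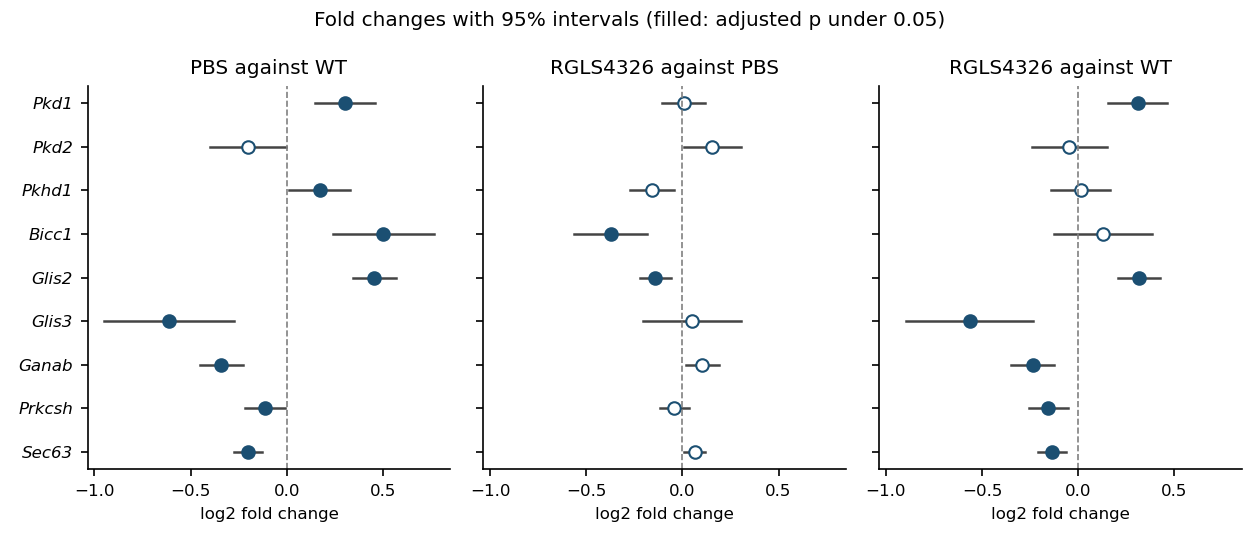
The 3 panels plot the log2 fold change of each gene (horizontal axis) in PBS against wild type, RGLS4326 against PBS and RGLS4326 against wild type, with 95% intervals as lines and filled circles where the adjusted p was under 0.05. Filled circles stand at 8, 2 and 6 genes; the signs are those with TMM scaling, and with library totals those of Pkd2, Ganab, Prkcsh and Sec63 turn in the first and the third panel and those of Pkd1, Glis3, Ganab and Sec63 in the second.

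Among the 4 that rose with PBS, Bicc1 and Glis2 were lower with RGLS4326, Pkhd1 gave −0.16 without passing and Pkd1 gave 0.0061. The 4 that fell gave values from −0.041 (Prkcsh) to 0.10 (Ganab) with RGLS4326, none of which passed. The 5 genes with a GCACTTT match gave treatment values of 0.0061 (Pkd1), 0.16 (Pkd2), −0.37 (Bicc1), 0.049 (Glis3) and 0.065 (Sec63), and the 4 without gave −0.16 (Pkhd1), −0.14 (Glis2), 0.10 (Ganab) and −0.041 (Prkcsh). The median member moved by 0.0061 and the median of all genes by −0.0043 (−0.11 and −0.12 with library totals). No member passed both an adjusted p of 0.05 and a change of over 0.5 on the log2 scale with treatment, against 2.15% of all genes. With disease 2 did, Bicc1 and Glis3, against 42.4%, though Bicc1 at 0.50 was barely over that size and went as low as 0.44 with 1 mouse left out.

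Levels between genes were compared per kilobase of annotated exon, which need not be the exons these kidneys use. In wild type the order was Ganab (61.8 ± 2.26 CPM per kb, SD, n = 5), Glis2 (53.3 ± 2.01), Prkcsh (39.6 ± 0.896), Pkd2 (30.1 ± 1.99), Pkhd1 (18.6 ± 1.92), Sec63 (14.99 ± 0.571), Bicc1 (14.2 ± 1.54), Glis3 (4.98 ± 0.592) and Pkd1 (3.71 ± 0.188). The SDs of Sec63 and Bicc1 overlap, and those of the other neighbours do not. With PBS, Glis2 came first at 73.1 ± 5.57 CPM per kb (SD, n = 12) and Ganab second at 48.8 ± 3.36. Pkd1 and Glis3 exchanged places at the low end, with 4.57 ± 0.557 and 3.26 ± 0.656 CPM per kb, and the levels of Pkhd1 (20.98 ± 1.62) and Bicc1 (20.1 ± 2.39) came to lie within each other's spread.

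A ratio of reads of 2 genes in the same library does not depend on the scaling. Pkd2 gave 4.30 to 5.39 reads per Pkd1 read in wild type (mean 4.76), 2.58 to 4.97 with PBS and 2.99 to 4.86 with RGLS4326. In PBS-treated mice 10 of 12 ratios lay below the lowest wild-type ratio, and with RGLS4326 12 of 14 did. The mean log2 ratio was lower by −0.51 with PBS (p = 0.0042, exact two-sided permutation test of mice; 0.0126 after Benjamini-Hochberg adjustment over 6 ratio comparisons) and by −0.36 with RGLS4326 (p = 0.0025, exact; adjusted 0.0126). RGLS4326 against PBS gave 0.15 (p = 0.151, permutation test; adjusted 0.181). Within the index series, defined below, the 3 differences were −0.54, −0.40 and 0.14.

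For glucosidase II, Ganab gave 1.88 to 2.13 reads per Prkcsh read in wild type, 1.25 to 2.07 with PBS and 1.59 to 2.18 with RGLS4326. The log2 ratio was −0.22 lower with PBS than in wild type (p = 0.0229, exact permutation test; adjusted 0.0459), so there were fewer reads of the catalytic subunit for each read of the regulatory subunit, whichever scaling is used. Without wild-type mouse 3 or mouse 4 that p was 0.0626 or 0.0555 in the same exact test. RGLS4326 exceeded PBS by 0.14 (p = 0.0378, permutation test; adjusted 0.0567), and its difference from wild type was −0.082 (p = 0.242, exact).

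**Figure D3:**
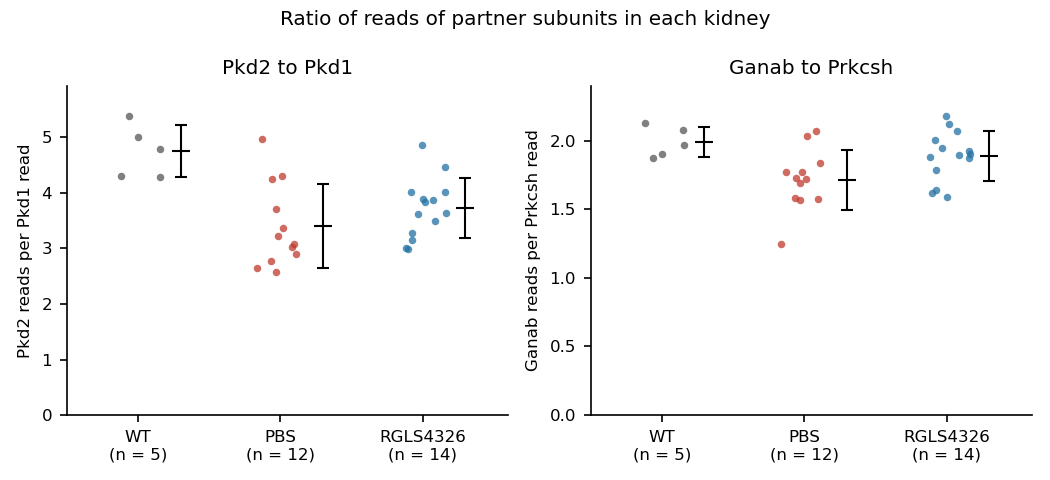
The vertical axis gives Pkd2 reads per Pkd1 read (left) and Ganab reads per Prkcsh read (right) in each kidney, from 0, with the 3 groups on the horizontal axis and the mean and SD beside the points. For Pkd2 to Pkd1, 10 of 12 PBS-treated and 12 of 14 RGLS4326-treated mice lie below every wild-type mouse.

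Library names as deposited carry a running number that starts again 2 times in a group, which splits the mice into 3 index series. PBS gave 4 mice to each, RGLS4326 gave 4, 5 and 5, and wild type 2, 2 and 1. For PBS against wild type, each of the 9 genes kept its direction in all 3 series; Glis2 passed in each (log2 fold change 0.40, 0.39 and 0.65), Ganab (−0.26, −0.39 and −0.31) and Glis3 (−0.61, −0.68 and −0.35) in 2 of them, and Bicc1 (0.64, 0.37 and 0.51), Pkd1 (0.42, 0.20 and 0.35) and Sec63 (−0.23, −0.19 and −0.11) in the first only. For RGLS4326 against PBS, no member passed the edgeR test within a series (0, 1 and 3 had an unadjusted p under 0.05). The share of all genes called within a series is not given here, so the counts of this paragraph cannot be set against it. Bicc1 was −0.24, −0.19 and −0.71 in the 3 series. In the third series the treated mice, at 67.8 to 111 CPM, all lay below the PBS-treated mice, at 145 to 173 CPM, whereas in the other two series the groups overlapped; whether the series differ was not tested. Glis2 was −0.090, −0.14 and −0.18, Pkd2 was 0.13, 0.21 and 0.11, and Pkhd1 was −0.067, −0.073 and −0.33. Glis3 changed sign, at −0.16, 0.39 and −0.16. With the series as a covariate the treatment calls were the same 2, Bicc1 (−0.38, adjusted p = 0.014) and Glis2 (−0.14, adjusted p = 0.0223).

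**Figure D4:**
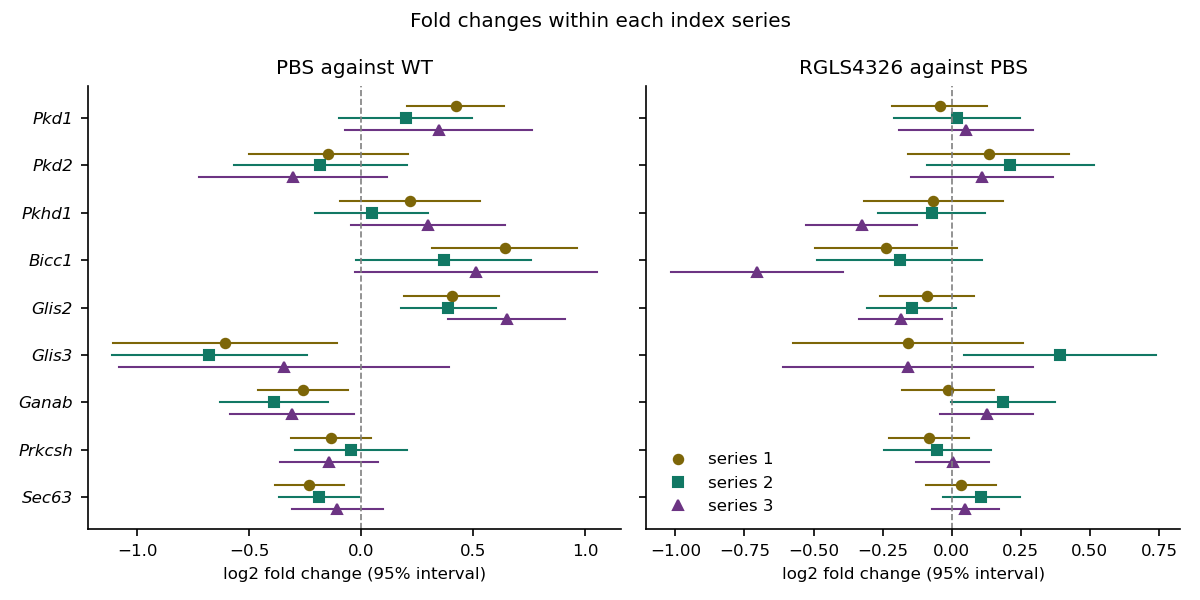
The log2 fold change of each gene (horizontal axis, with 95% intervals as lines) is plotted within each of the 3 index series for PBS against wild type (left) and RGLS4326 against PBS (right). On the left each gene keeps its side of 0; on the right Bicc1, Glis2 and Pkhd1 lie below 0 in each series and Pkd2 and Sec63 above, while Pkd1, Glis3, Ganab and Prkcsh cross it.

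Markers of several cell types differed between the groups as well. Summed over 7 markers of collecting duct principal cells, mRNA rose from 551–915 CPM in wild type to 1587–3241 CPM with PBS and stood at 864–2279 CPM with RGLS4326, with 7 of 7 markers higher with disease (37.7% of all genes) and 6 of 7 lower with treatment (6.66% of all genes). Over 7 proximal tubule markers it fell from 15556–16923 to 4749–9476 CPM and stood at 6223–14439 CPM with RGLS4326, with 7 of 7 lower with disease (36.6% of all genes) and 3 of 7 higher with treatment (9.15% of all genes). Leukocyte markers (6 genes) went from 25.3–41.1 to 125–225 CPM and stroma markers (6 genes) from 109–155 to 371–795 CPM with PBS, and neither list had a member that passed with treatment. With disease, 1 of 4 podocyte markers was higher and none lower, and 1 of 5 endothelial markers was lower and none higher. Of 5 intercalated cell markers 2 were higher and 2 lower. None of these passed with treatment. Among 3 distal convoluted tubule markers, 2 were lower with disease and 1 was higher with treatment. Among 3 thick ascending limb markers, 1 was higher and 1 lower with disease, and none passed with treatment. No marker of any list was at 0 in a group. In whole kidney, fewer cells of a type and less RNA per cell cannot be told apart, and the part of these lists in the members' differences was not tested.

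Among 20 other genes of cystic kidney disease, 6 rose, 8 fell and 6 did not pass with PBS (14, 2 and 4 with library totals), where 74.3% of all genes passed, so 14 of 20 is near the background. Invs, which encodes inversin, a protein of the cilium, gave the largest fall (−1.02), and Dzip1l, a transition zone gene mutated in recessive disease, rose by 0.45. With RGLS4326, 2 were higher, among them Invs (0.27, adjusted p = 0.039); Dzip1l was lower (−0.22, adjusted p = 0.0102), and 17 did not pass (10 were lower and none higher with library totals), where 15.8% of all genes passed.

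Around Ganab, Prkcsh and Sec63, the 15 other genes of glycoprotein folding and translocation gave 2 higher, 7 lower and 6 that did not pass with PBS, with a median log2 fold change of −0.069 against 0.010 over all genes (with library totals 11 higher, 2 lower and a median of 0.30). The share called is below the 74.3% of all genes. The 3 with the smallest p were Canx, the chaperone calnexin (−0.57), Uggt1, the folding sensor that adds glucose back (−0.35), and Sec62, the partner of Sec63 in the translocon (−0.54). With RGLS4326, 4 were higher and none lower (1 and 2 with library totals). These were Hspa5, the chaperone BiP (0.28, adjusted p = 0.0155), Sec62 (0.25, adjusted p = 0.0197), Canx (0.18, adjusted p = 0.0276) and Alg8 (0.14, adjusted p = 0.036), a glucosyltransferase mutated in polycystic liver disease. Of 12 genes of the unfolded protein response, 3 were higher and 7 lower with PBS (7 and 3 with library totals), against the same 74.3% of all genes, among them Dnajb9 (−0.87), Edem1 (−0.81) and Herpud1 (−1.07). With RGLS4326, 5 were higher and none lower (3 and 1 with library totals), among them Dnajb9 (0.35, adjusted p = 0.0073), Herpud1 (0.41, adjusted p = 0.0293), Edem1 (0.25, adjusted p = 0.0251) and Hspa5, which both lists hold. Over all genes 15.8% passed with treatment, 9.15% higher. The medians of the last 2 lists with treatment were 0.081 and 0.079, against −0.0043 over all genes. With library totals those medians were −0.034 and −0.029, against −0.12 over all genes.

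Of 12 relatives and partners of the members, 11 were in the files and 6 passed the filter on low counts; Pkd1l2, Pkd1l3, Pkd2l1, Pkdrej and Pkhd1l1 were at 10 reads or fewer in every library, too few to be read. Gli1, a target and effector of hedgehog signalling, rose by 2.20 on the log2 scale with PBS and Gli3 by 1.57, while Glis1, the relative of Glis2 and Glis3, fell by 0.88. With RGLS4326 Glis1 was higher (0.29, adjusted p = 0.0397) and the other 5 did not pass, against 15.8% of all genes called. That call was lost without any 1 of 12 mice, without the filter on low counts, with these 2 groups only and with library totals, where 2 of the 6 were lower and none higher. Glis1 thus moved in the direction of Glis3 with disease, and Glis2 was the one of the 3 Glis genes that rose.

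Within the PBS group, several members followed the injury marker Lcn2, which ran from 205 to 1205 CPM there. The share of all genes that followed Lcn2 was not computed, so these relations are not shown to be particular to the members. Over the 12 mice, with values as log2(CPM + 1), Pearson's r with Lcn2 was −0.87 for Ganab (rho −0.80), −0.84 for Pkd2 (rho −0.78), 0.82 for Glis2 (rho 0.80), −0.72 for Sec63 (rho −0.77) and 0.69 for Bicc1 (rho 0.80). Their p-values from permutation tests, adjusted over 18 relations, were 0.0016, 0.0044, 0.0057, 0.018 and 0.043 for r and 0.013, 0.013, 0.013, 0.014 and 0.013 for rho. Without the 2 mice farthest from the median of Lcn2, r was −0.78, −0.74, 0.79, −0.54 and 0.53, and the last 2 no longer passed (both adjusted p = 0.254, permutation test), so those of Sec63 and Bicc1 rested in part on PBS-treated mice 5 and 10. Centred by index series, r was −0.86, −0.95, 0.81, −0.75 and 0.72. For Pkd1 r was 0.063.

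In RGLS4326-treated mice, Ganab was again inversely correlated with Lcn2 (r −0.81, rho −0.82, adjusted p = 0.00054 and 0.0099, permutation test; −0.84 without mice 9 and 13, −0.78 centred by series). For Glis2 r was 0.71 (adjusted p = 0.048, permutation test) but rho 0.20, and without mice 9 and 13 r was 0.085, so it rested on those mice. For Pkd2 r was −0.21 over 14 mice and rho −0.64 (adjusted p = 0.043 for rho, permutation test). Without mice 9 and 13 r was −0.79 (adjusted p = 0.015, permutation test), and over all 14 mice centred by index series it was −0.14. The mice shared their scaling and library with both measures, and whether the 2 groups differ in these relations was not tested.

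**Figure D5:**
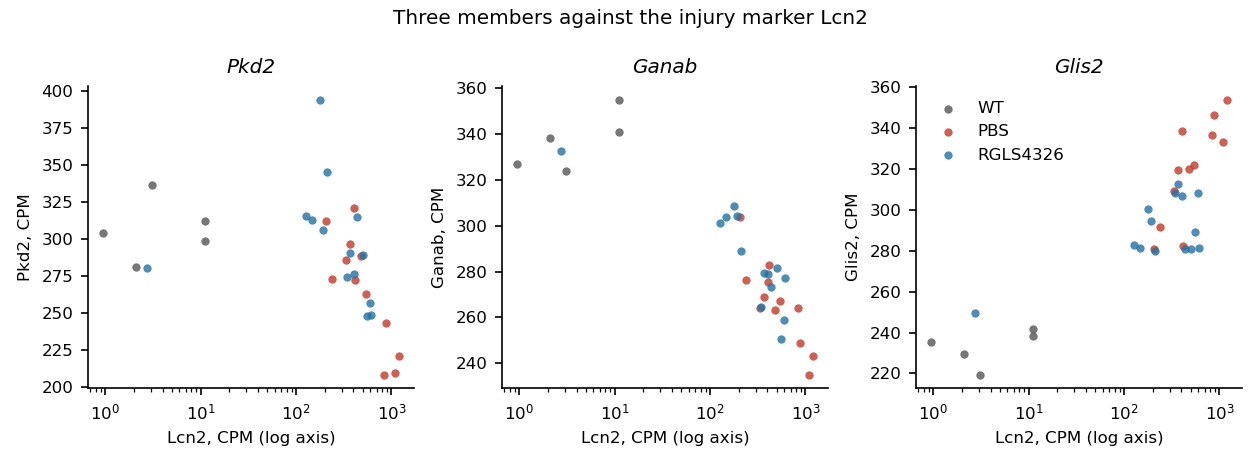
CPM of Pkd2, Ganab and Glis2 (vertical axes, not from 0) is plotted against CPM of Lcn2 (horizontal log axis), with 1 point for each kidney and colours for wild type, PBS and RGLS4326. Among PBS-treated kidneys Pkd2 and Ganab are lower and Glis2 is higher at higher Lcn2, and among RGLS4326-treated kidneys Ganab is lower. The blue point at 2.76 CPM is RGLS4326-treated mouse 9, whose Lcn2 and Ganab lie within the wild-type range.

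Across the 26 cystic mice, centred on group means, 16 of 36 pairs of members were correlated past adjustment (permutation tests). The share among pairs of all genes was not computed, so this count is not shown to be particular to the members. Ganab, Glis3, Pkd2 and Sec63 moved together, with r from 0.59 (Pkd2 and Glis3, adjusted p = 0.0065) to 0.73 (Glis3 and Ganab, rho 0.75, adjusted p = 0.0011, permutation test) in the 6 pairs they form. Glis2 ran against Ganab (r −0.66, rho −0.59, adjusted p = 0.0016, permutation test), and Prkcsh against Glis3 (r −0.57, rho −0.64, adjusted p = 0.0036, permutation test). Pkhd1 and Bicc1, with r 0.75 (rho 0.68, adjusted p = 0.0011, permutation test), were also close, at 0.50 within PBS and 0.84 within RGLS4326. Without the 2 most distant mice r was 0.61 for that pair and 0.76 for Glis3 and Ganab. Partners in a complex were not the closest pairs: Pkd1 and Pkd2 gave r −0.024 (rho 0.026, adjusted p = 0.938, permutation test), and Ganab and Prkcsh −0.35 (rho −0.31, adjusted p = 0.139, permutation test). Without RGLS4326-treated mouse 9 the latter passed (r −0.49, adjusted p = 0.046, permutation test), and r was −0.59 within PBS and −0.098 within RGLS4326. Centred by series too, these values were 0.71 for Glis3 and Ganab, 0.63 for Pkd2 and Glis3, −0.65 for Glis2 and Ganab, −0.69 for Glis3 and Prkcsh and 0.76 for Pkhd1 and Bicc1.

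The genes whose levels most resembled each member were found by Pearson's r of log2(CPM + 1), centred on group means, over 31 mice. The 11522 genes averaging 5 CPM or more were searched. The values are a description with no test. Glis3 was closest to Shroom4 and Ralgps1 (both 0.95), Ganab to Mia3 (0.95) and Xpot (0.94), and Pkd2 to Rmnd5a and Slc25a36 (both 0.92). Prkcsh was closest to Fkbp8 and Sgta (both 0.88), Pkd1 to Cep170 (0.86) and Hip1 (0.83), and Bicc1 to Kpnb1 (0.85) and Ptprj (0.84). Pkhd1 was closest to Exph5 (0.82) and Sestd1 (0.81), Glis2 to F11r (0.81) and Ciz1 (0.80), and Sec63 to Cul1 (0.80) and Cul5 (0.79).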

How the data were processed

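The authors prepared stranded mRNA libraries from whole kidney and sequenced paired reads, which were trimmed (TrimGalore), mapped to GRCm38 (mm10) with STAR and, where uniquely mapped, counted per gene by HTSeq 0.6.1. The deposited values are raw counts without normalization. The annotation and strand setting are not given in the sources used here. The 5 summary lines of each file (10.8 to 12.9% of counted reads on no gene or an ambiguous one) were left out. Conditions and replicate numbers came from the labels; no source says which mice share a litter, so p-values measure the spread between these mice.

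Genes passing filterByExpr (15185) were scaled by TMM and fitted in 1 edgeR 4.0.16 quasi-likelihood model of all 31 mice (R 4.3.3), with Benjamini-Hochberg adjustment over all genes. SEs were taken as the size of the log2 fold change over the square root of its F statistic. Ratios and correlations were tested by permuting mice (100000 resamples, or exactly with a group of 5) on log2 values (pseudocount 1 CPM for correlations). DESeq2 1.42.0 was an alternative. The fit was also run on simulated data, with a result that is not reported here. 3′UTRs and exon lengths came from GENCODE vM21. The members and lists were chosen with earlier results of these data known. Named genes are the members, Lcn2, per comparison the 3 genes with the smallest p in each list and the 2 genes most like each member; others named were chosen after their values were seen, and some genes of the rule are not reported here. The file lists Adgre1 under an older symbol.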

Additional observations from a re-analysis of the deposited data

How the results depend on the processing

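Limits: wild type has 5 mice, 1 of them in index series 3, and the PBS and RGLS4326 groups overlap for every member, so treatment differences rest on means. With library totals in place of TMM, log2 fold changes turned in PBS against wild type for Pkd2 (0.16), Ganab (0.023), Prkcsh (0.25) and Sec63 (0.16), in RGLS4326 against PBS for Pkd1 (−0.11), Glis3 (−0.069), Ganab (−0.0098) and Sec63 (−0.047), and in RGLS4326 against wild type for Pkd2 (0.203), Ganab (0.014), Prkcsh (0.099) and Sec63 (0.12); the shift of the median gene accounts for them by construction. Within index series, turns were seen for RGLS4326 against PBS in Pkd1 (−0.044, series 1), Glis3 (−0.16 in series 1 and 3), Ganab (−0.014, series 1) and Prkcsh (0.0032, series 3), and against wild type in Pkd2 (0.029, series 2), Pkhd1 (−0.027 and −0.028) and Bicc1 (−0.19, series 3). Pkd1 was −0.00097 with a filter of 1 CPM and −0.018 to 0.028 with 1 mouse left out, Glis3 −0.016 to 0.11, and Pkhd1 against wild type −0.043 to 0.046. Pairs of members turned between Pkd1 and Pkd2 (0.011), Pkd1 and Sec63 (0.017) and Bicc1 and Sec63 (−0.049) on centring by series, and Pkd1 and Ganab (0.073), Pkd1 and Sec63 (0.018) and Pkhd1 and Ganab (0.081) without RGLS4326-treated mouse 9; none of these passed. The cause of turns other than by scaling was not tested.

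For PBS against wild type, members called numbered 8, with 3 and 1 within series 2 and 3 and 2 when a change over 0.5 was also asked; the cystic disease list gave 8 and 7 within series 2 and 3 and 5 with that size asked, the endoplasmic reticulum list 4 and 4 within series 1 and 3 and 2 with the size asked, the relatives 2 and 3 within series 2 and 3, and the unfolded protein response list 6 and 4 within series 1 and 3 and 5 with the size asked. For RGLS4326 against PBS, members called were 4 with library totals, 5 with DESeq2 and 0 within each series or when a change over 0.5 was asked; the cystic disease list gave 10 with library totals, the relatives 2, and each of the 4 lists 0 within series and with the size asked. Relatives gave 0 without the filter or with 2 groups only. The share of all genes called is given here only with TMM and with library totals. Counts in this section under any other setting, such as DESeq2, index series or replicate block, therefore cannot be set against a background. For RGLS4326 against wild type, members called were 0 and 1 within series 2 and 3 and 1 with the size asked. With 1 mouse left out, members called ran from 6 to 9, 1 to 4 and 6 to 6; the lists with disease from 12 to 15, 7 to 10, 5 to 5 and 8 to 10, and with treatment from 1 to 5, 2 to 7, 0 to 1 and 2 to 6. The 11 mice whose removal lost Pkhd1 with disease were PBS 2, 4, 8, 9, 10, 11 and 12, RGLS4326 5 and 12 and wild type 1 and 5 (adjusted p up to 0.198), and for Prkcsh PBS 2, 4, 6, 7, 10 and 11, RGLS4326 13 and wild type 1, 2, 3 and 5 (up to 0.0917). Pkd2 passed with disease without PBS 4, 8 or 12 or RGLS4326 6 (down to 0.0313), Pkhd1 with treatment without PBS 1 or 4, RGLS4326 1, 4, 6 or 11 or wild type 1 (down to 0.0296), and Ganab with treatment without PBS 4 or RGLS4326 2 (down to 0.0291). The Pkd2 to Pkd1 difference ran from −0.56 to −0.46, 0.11 to 0.20 and −0.40 to −0.31, and passed for RGLS4326 against PBS without PBS-treated mouse 12 (unadjusted permutation p = 0.0404); Ganab to Prkcsh ran from −0.25 to −0.18, 0.10 to 0.17 and −0.10 to −0.058. Pairs of members past adjustment were 14 without mouse 9.

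Replicate numbers do not pair the mice: same-numbered deviations correlated at a mean of 0.087, −0.085 and −0.030 in the 3 comparisons, over 0.1 in 2 of 5, 4 of 12 and 1 of 5 pairs, and 2, 1 and 0 mice correlated best with their own number. With the replicate block, members called were 7, 1 and 7. Pkd2 was gained (adjusted p = 0.0289) and Pkhd1 and Prkcsh were lost (0.141 and 0.125) with disease, Glis2 was lost with treatment (−0.14, 0.0757), and Bicc1 was gained for RGLS4326 against wild type (0.0281). With treatment the cystic disease, endoplasmic reticulum, relatives and unfolded protein response lists gave 1, 0, 0 and 1, and ratio differences were −0.65 and −0.46 (Pkd2 to Pkd1) and −0.27 (Ganab to Prkcsh, PBS against wild type), each with an exact p of 0.0625, the smallest 5 pairs allow.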
